A study of Mus musculus with 12 samples.

Results

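The 8 genes described here encode surface molecules with which leukocytes, platelets, and endothelial cells hold on to each other: Selp, Selplg, Mcam, Icam1, Vcam1, Pecam1, F11r, and Cd44. They were taken by symbol from the count table, in which all 8 were found among 35303 symbols, and all 8 passed the filter on low counts. The table holds bulk poly(A) RNA-seq of mouse myeloid-derived suppressor cells (MDSCs) in 3 groups of 4 libraries. MDSC were unmodified cells, MDSC-NP-Blk carried blank poly(lactide-co-glycolide) nanoparticles (NPs) on their surface, and CITED carried the same kind of NP loaded with rapamycin, an inhibitor of the kinase mTOR. All groups came from the bone marrow of wild-type female C57BL/6 mice aged 6 to 10 weeks, which was cultured for 3 days with IL-6 and GM-CSF and purified for CD11b+Gr1+ cells, and all were then kept for 24 hours with IL-6 at 40 ng/ml. NPs were attached by click chemistry to azido groups that the cells take up with a modified sugar. Whether the unmodified cells received that sugar is not stated, so the particle and this step cannot be told apart in comparisons with MDSC. The labels call the 4 libraries of a group biological replicates without saying whether each came from its own mice or culture, and the p-values measure the spread between these libraries. In bulk RNA, fewer cells of a type and less RNA per cell cannot be told apart.

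The libraries held between 20604809 and 37855478 counts (MDSC from 21549696 to 27832481, CITED from 21336119 to 27077958). All 12 MDSC identity markers looked up, among them Itgam, which encodes CD11b, Ly6g, S100a8, and S100a9, were detected in every group. Of the 12, 5 rose and 4 fell in CITED against MDSC and 11 rose in MDSC-NP-Blk. Scaled by library totals in place of TMM factors, 4 rose and 7 fell in CITED, and 5 rose and 1 fell in MDSC-NP-Blk. The labels give the CNS as the tissue, and of 10 brain markers chosen after the data were seen, Gfap, Mog, Rbfox3, Syt1, Snap25, Olig2, and Aqp4 had at most 3 counts in any library, whereas Mbp (1945, 2139, and 1902 normalized counts in MDSC, MDSC-NP-Blk, and CITED) and Aldh1l1 (193, 125, and 87.5) were detected. Of these markers, only Aldh1l1 passed the test against MDSC, with log2 fold changes of −1.13 (CITED) and −0.63 (MDSC-NP-Blk), and with library totals Mbp passed in CITED as well (−0.31, adjusted p = 7.6e-05).

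Leukocytes leave the blood in steps. Selectins such as P-selectin, encoded by Selp, bind sugars on carriers such as PSGL-1, encoded by Selplg, and slow the cell into rolling. Integrins on the leukocyte then bind immunoglobulin-type molecules such as ICAM-1 and VCAM-1, and junctional molecules such as PECAM-1 and JAM-A (F11r) serve the passage between endothelial cells. CD44 binds hyaluronan and can itself carry selectin ligands, and MCAM is an adhesion molecule of endothelial cells and of some leukocytes. Most of the 8 are known from endothelium, and several of them are also made by myeloid cells or platelets.

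In the cells carrying rapamycin NPs, 3 of the 8 genes rose at least 2-fold over unmodified MDSCs and 1 fell. Selp rose 2.40-fold, Selplg 2.25-fold, and Mcam 2.78-fold, whereas Vcam1 fell 4.25-fold. With blank NPs, Selplg rose 2.03-fold and Mcam 2.40-fold over MDSC. The fall of Vcam1 and of Pecam1 set CITED apart from the cells with blank NPs, since Vcam1 was 3.28-fold and Pecam1 1.56-fold lower in CITED than in MDSC-NP-Blk. Icam1 and Cd44 rose by less than 2-fold with either NP.

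A gene was called changed at an adjusted p below 0.05 and a log2 fold change of at least 1 in size. Between CITED and MDSC, 3 of 8 genes were called higher, against 3.28% of the 17676 symbols tested, and 1 lower, against 6.70%. At the adjusted p alone 6 were higher and 2 lower, where 22.2% of all symbols were higher and 22.2% lower. The 4 libraries of the groups did not overlap for 7 of the 8 genes, against 42.5% of all symbols. Between MDSC-NP-Blk and MDSC, 2 of 8 genes were called higher (1.88% of symbols) and 0 lower (2.86% of symbols). At the adjusted p alone 6 were higher and 1 lower (19.9% and 18.6% of symbols), and for 6 the groups did not overlap (35.6% of symbols). Between CITED and MDSC-NP-Blk, 0 of 8 were called higher (0.651% of symbols) and 1 lower (2.00% of symbols). At the adjusted p alone 2 were higher and 2 lower (10.5% and 11.4% of symbols), and for 3 the groups did not overlap (21.2% of symbols). The median log2 fold change of the 8 genes was 0.45, 0.53, and −0.07 in these comparisons, beside −0.05, −0.03, and 0 over all symbols tested. The first and second comparisons share the same 4 MDSC libraries, and the 8 genes were chosen with results of these data known.

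Scaling by library totals alone, in place of the TMM factors of edgeR, moved the median of all symbols to −0.32 in CITED against MDSC and −0.29 in MDSC-NP-Blk against MDSC. With it, Mcam and Vcam1 were called in CITED (2 genes), and 0 genes in MDSC-NP-Blk. The count in MDSC-NP-Blk was also 1, in place of 2, without MDSC-NP-Blk replicate 4 and after the correction for transcript length. The directions given below are thus relative to the bulk of the transcripts. Over 10543 genes, the Spearman correlation of relative level with transcript length ran from 0.22 to 0.35 in the MDSC libraries. It ran from −0.42 to 0.09 in MDSC-NP-Blk and from −0.34 to −0.19 in CITED. The trend of level with transcript length thus differed between MDSC and the groups with NPs.

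**Figure D1:**
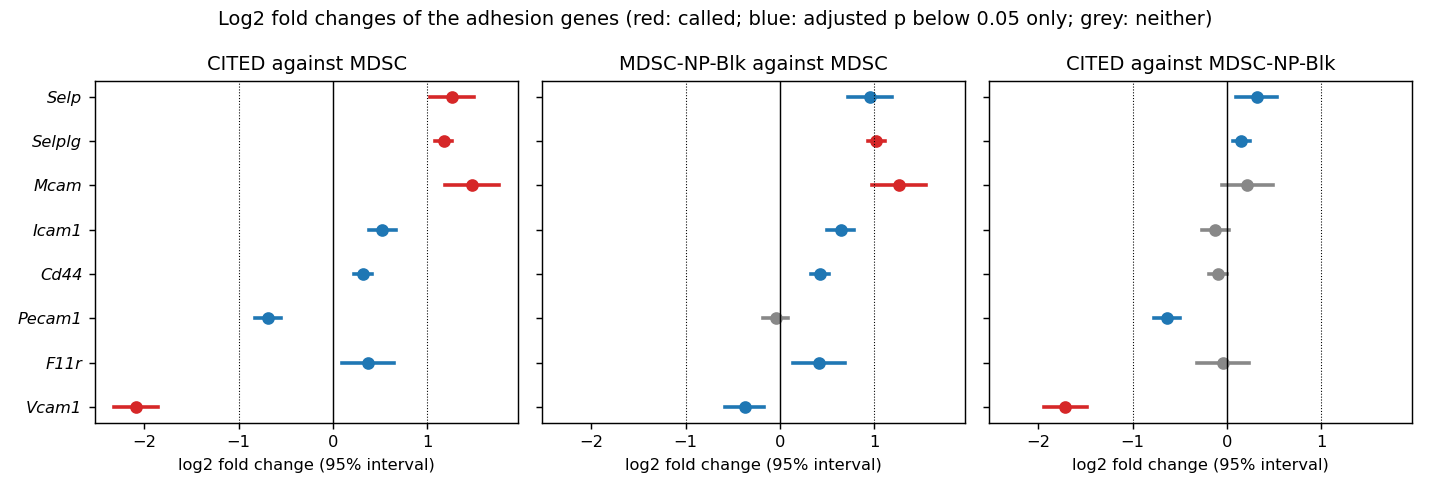
Log2 fold changes of the 8 genes in the 3 comparisons, with 95% confidence intervals from the edgeR fit and dotted lines at the fold threshold. Red points were called, blue ones passed the adjusted p alone, and grey ones neither. Vcam1 has the lowest values in CITED, at −2.09 against MDSC and −1.71 against MDSC-NP-Blk, and Selp, Selplg, and Mcam have the highest against MDSC.

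**Figure D2:**
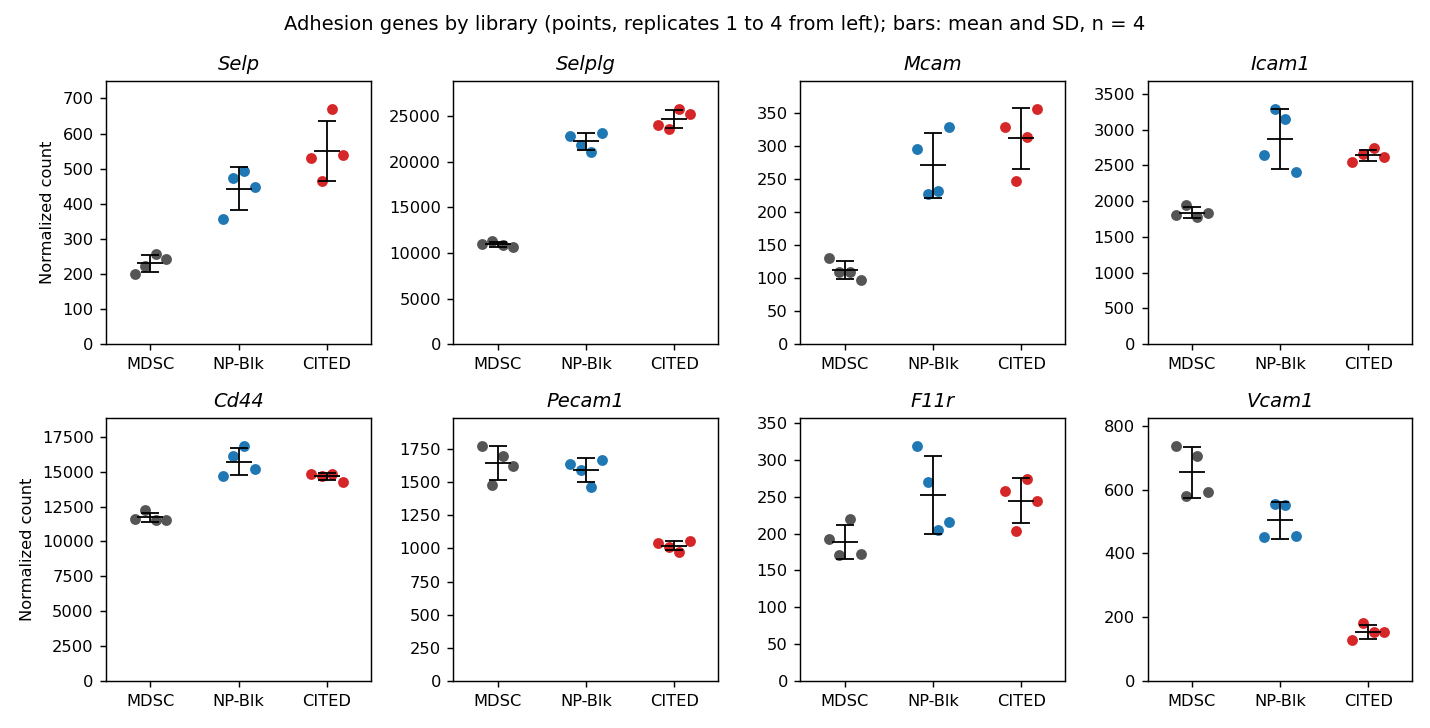
Normalized counts of each gene in the 12 libraries, scaled with TMM factors, on an axis that starts at 0 for each gene, with points for libraries and bars for the mean and SD of 4 (NP-Blk stands for MDSC-NP-Blk). The MDSC libraries lie below the others for Selp, Selplg, Mcam, Icam1, and Cd44, and the CITED libraries lie below the others for Pecam1 and Vcam1.

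Upstream sequences are shown for Selp, Selplg, and Vcam1 because the first and second rose and the last fell in the same CITED libraries. Each is the 250 bases before the start of the canonical GENCODE transcript in GRCm39, printed 5′ to 3′ on the strand of the gene, with matches to 3 motifs in capitals. The motifs were searched on both strands with no overlap among the matches: GGNNNTTCC, a form of the NF-kB site; GAGGAAG, the core of the PU.1 site; and TTCNNNGAA, the STAT palindrome.
Selp, chr1:163942583-163942832, plus strand: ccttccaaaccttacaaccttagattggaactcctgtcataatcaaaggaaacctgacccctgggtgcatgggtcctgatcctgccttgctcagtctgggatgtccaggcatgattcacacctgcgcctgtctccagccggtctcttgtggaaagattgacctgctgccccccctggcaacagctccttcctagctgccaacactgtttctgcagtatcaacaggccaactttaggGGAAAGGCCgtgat
Selplg, chr5:113968568-113968817, minus strand: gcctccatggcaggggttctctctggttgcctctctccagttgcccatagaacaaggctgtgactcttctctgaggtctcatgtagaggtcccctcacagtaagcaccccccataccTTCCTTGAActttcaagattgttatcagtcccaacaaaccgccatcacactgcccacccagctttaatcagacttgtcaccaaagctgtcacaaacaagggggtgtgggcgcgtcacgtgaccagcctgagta
Vcam1, chr3:115923348-115923597, minus strand: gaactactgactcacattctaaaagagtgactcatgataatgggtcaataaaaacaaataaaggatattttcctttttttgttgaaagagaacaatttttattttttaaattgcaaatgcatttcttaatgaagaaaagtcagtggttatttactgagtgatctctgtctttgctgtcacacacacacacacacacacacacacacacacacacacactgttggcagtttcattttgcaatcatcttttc

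The Selp window holds 1 NF-kB form, on the opposite strand from position −14. The Selplg window holds 1 STAT palindrome from −133. The Vcam1 window, the poorest of the 3 in G and C with 33.2% (53.6% in Selp and 53.2% in Selplg), holds none of the 3 motifs. Among the upstream windows of 21749 protein-coding genes, 15.8% held the NF-kB form, 10.3% the PU.1 core, and 7.70% the STAT palindrome. The same search over the windows of Icam1, Cd44, Pecam1, and F11r was also made. That of Icam1 had an NF-kB form from −243 and that of Cd44 a PU.1 core from −221, and those of Pecam1 and F11r had no match. The windows of Selplg and Pecam1 lie wholly within the spans of their genes, so other annotated transcripts of both start further upstream.

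Selp (ENSMUSG00000026580.17) lies on the plus strand at chr1:163942833-163977595 and encodes P-selectin, the selectin of activated platelets and endothelium. It stood at 201, 223, 256, and 242 normalized counts in the MDSC libraries, at 356, 473, 494, and 449 in MDSC-NP-Blk, and at 532, 465, 669, and 539.8 in CITED. All libraries with NPs lay above all MDSC libraries, and MDSC-NP-Blk and CITED overlapped. The group means were 230.4 ± 23.7, 443.0 ± 60.9, and 551 ± 85.6 (SD, n = 4). The log2 fold change against MDSC was 1.26 in CITED (SE 0.113, adjusted p = 1.4e-11) and 0.95 in MDSC-NP-Blk (SE 0.114, adjusted p = 1.6e-08). CITED was higher than MDSC-NP-Blk by 0.31 (SE 0.109, adjusted p = 0.035), a difference that missed the threshold without MDSC-NP-Blk replicate 1, CITED replicate 3, or CITED replicate 4 (adjusted p = 0.14, 0.22, and 0.057).

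The summed level of platelet and megakaryocyte genes was higher with either NP than in MDSC, but in CITED only Pf4 and Ppbp rose. Over 12 such markers it ran from 5133 to 5860 normalized counts in MDSC, from 7711 to 8518 in MDSC-NP-Blk, and from 8285 to 8926 in CITED, and all 12 were detected. Of the 12, 10 rose and 0 fell in MDSC-NP-Blk against MDSC, and 2 rose and 2 fell in CITED against MDSC. With library totals 6 rose and 0 fell in MDSC-NP-Blk, and 2 rose and 4 fell in CITED. Between CITED and MDSC-NP-Blk, 2 rose and 4 fell, with a list median of −0.51 on the log2 scale. The 2 rises in CITED against MDSC were Pf4, platelet factor 4, from 2321 ± 75.8 to 4242 ± 264, and Ppbp, a platelet chemokine, from 984 ± 21.1 to 2299 ± 103 (SD, n = 4). Pf4 and Ppbp together made up most of the sum in CITED. Itga2b, the platelet integrin subunit, stood at 1491, 2079.7, and 1292 on average in MDSC, MDSC-NP-Blk, and CITED. The part of platelet RNA in the level of Selp was not tested.

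Selplg (ENSMUSG00000048163.14), on the minus strand at chr5:113956597-113970705, encodes the main ligand of P-selectin on myeloid cells. It stood at 11005, 11293, 10819.8, and 10661 normalized counts in MDSC, at 22783, 21859, 21101, and 23157 in MDSC-NP-Blk, and at 24041, 23616, 25741, and 25253 in CITED. The 3 groups did not overlap, and CITED was the highest. The means were 10945 ± 271, 22225 ± 927, and 24663 ± 999 (SD, n = 4). Against MDSC the log2 fold change was 1.17 in CITED (SE 0.0451, adjusted p = 4.6e-21) and 1.02 in MDSC-NP-Blk (SE 0.0449, adjusted p = 5.1e-19). The step from MDSC-NP-Blk to CITED was small, at 0.15 (SE 0.0444, adjusted p = 0.012), and missed the threshold without CITED replicate 3 (adjusted p = 0.052).

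Other selectins and ligand carriers were looked up beside Selp and Selplg. Spn, which encodes the sialomucin CD43, fell in CITED from 6931 ± 55.9 to 4309 ± 184 (log2 fold change −0.69, SE 0.0463, adjusted p = 1.2e-14) and stood at 7236 ± 109 in MDSC-NP-Blk (adjusted p = 0.31 against MDSC, 0.00044 with library totals and a log2 fold change of −0.20). Sele, the endothelial selectin gene, had mean levels of 0.448, 1.42, and 3.08 in MDSC, MDSC-NP-Blk, and CITED, and Emcn, Glycam1, and Madcam1 did not exceed 3 counts in any library, which is the floor used for counting.

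PSGL-1 binds P-selectin only once its sugars and tyrosines are modified. Of 13 enzymes and transporters for these steps, 6 rose and 3 fell in CITED against MDSC, and 4 rose and 3 fell in MDSC-NP-Blk, with list medians of 0.10 and −0.01 on the log2 scale (all symbols, −0.05 and −0.03). Scaled by library totals the split turned, to 3 higher and 6 lower in CITED and 2 higher and 8 lower in MDSC-NP-Blk. St3gal4, a sialyltransferase of selectin ligands, rose from 1826 ± 67.6 to 3218 ± 99.5 in CITED, a log2 fold change of 0.82 (SE 0.0547, adjusted p = 9e-15). Tpst2, which sulfates tyrosines, rose by 0.45, whereas Galnt1 and C1galt1, which start and extend O-glycans, fell by 0.45 and 0.37. Fut7, the fucosyltransferase of leukocyte selectin ligands, fell by 0.36 in CITED (adjusted p = 0.012), from 282 to 220.3 normalized counts. St3gal6, another sialyltransferase, was the only one of the 13 called in CITED, from 69.4 to 141 normalized counts. Its log2 fold change was 1.02 (adjusted p = 1.5e-05), and 0.75 with library totals (adjusted p = 0.00079).

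Mcam (ENSMUSG00000032135.17), on the plus strand at chr9:44045504-44054025, encodes CD146. It stood at 131, 108, 109.6, and 97.6 normalized counts in MDSC, at 295, 227, 231, and 327 in MDSC-NP-Blk, and at 329, 247, 313, and 355 in CITED. The MDSC libraries were the 4 lowest, and the groups with NPs overlapped. The means were 112 ± 13.8, 270.1 ± 49.2, and 311 ± 46.0 (SD, n = 4). The log2 fold change against MDSC was 1.47 in CITED (SE 0.140, adjusted p = 5.6e-11) and 1.26 in MDSC-NP-Blk (SE 0.141, adjusted p = 3.6e-09). CITED and MDSC-NP-Blk differed by 0.21, with a 95% interval from −0.05 to 0.48 and an adjusted p of 0.28. With library totals the change in MDSC-NP-Blk was 0.999, just under the fold threshold.

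Icam1 (ENSMUSG00000037405.10), on the plus strand at chr9:20926672-20940113, encodes ICAM-1, the counter-receptor of the beta-2 integrins. It stood at 1801, 1948, 1773, and 1841 normalized counts in MDSC, at 2648, 3287, 3156, and 2402 in MDSC-NP-Blk, and at 2546, 2657, 2742, and 2619 in CITED. The MDSC libraries were again the 4 lowest, and the spread was widest in MDSC-NP-Blk (SD 418, against 76.7 in MDSC and 81.8 in CITED). The log2 fold change against MDSC was 0.52 in CITED (SE 0.0701, adjusted p = 1e-07) and 0.65 in MDSC-NP-Blk (SE 0.0699, adjusted p = 2e-09). CITED was lower than MDSC-NP-Blk by −0.12 (95% interval −0.27 to 0.02, adjusted p = 0.23), and without MDSC-NP-Blk replicate 4 that difference passed the threshold (adjusted p = 0.023).

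Vcam1 (ENSMUSG00000027962.16), on the minus strand at chr3:115903598-115923355, encodes VCAM-1, the counter-receptor of integrin alpha-4 beta-1. It stood at 738, 580.5, 707, and 592 normalized counts in MDSC, at 450.3, 556, 554, and 455 in MDSC-NP-Blk, and at 128, 181, 154, and 153 in CITED. The 3 groups did not overlap, and the highest CITED library lay far below the lowest of the other 8. The means were 654 ± 79.8, 504 ± 59.0, and 154 ± 21.7 (SD, n = 4). Against MDSC the log2 fold change was −2.09 in CITED (SE 0.113, adjusted p = 3.3e-17) and −0.37 in MDSC-NP-Blk (SE 0.101, adjusted p = 0.0028). Between CITED and MDSC-NP-Blk it was −1.71 (SE 0.114, adjusted p = 7.1e-14). Vcam1 was the only one of the 8 genes called in that comparison, in the main fit and in every fit that left out 1 library.

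VCAM-1 is also made by macrophages, and genes of resident macrophages were looked up beside Vcam1. Of 10 such markers, 5 fell and 1 rose in CITED against MDSC, and 5 fell and 0 rose in MDSC-NP-Blk. With library totals 5 fell and 0 rose in CITED, and 6 fell and 0 rose in MDSC-NP-Blk. Between CITED and MDSC-NP-Blk, where Vcam1 was 3.28-fold lower, 3 fell and 1 rose. The complement genes C1qa, C1qb, and C1qc fell from 560.4, 1167, and 828 normalized counts without NPs to 177, 382, and 213 with blank NPs and to 33.9, 145, and 51.0 in CITED, where their log2 fold changes against MDSC were −4.05, −3.01, and −4.04. The sum over the 10 markers ran from 6530 to 6908 in MDSC, from 4068 to 5484 in MDSC-NP-Blk, and from 4776 to 4972 in CITED. Most of that sum was Adgre1, which encodes F4/80 and stood at 3776, 3816, and 4457 on average, and Vsig4 and Timd4 did not exceed 3 counts in any library. The part of these cells in the fall of Vcam1 was not tested.

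Of 11 integrin subunits that pair with ICAM-1, VCAM-1, PECAM-1, or JAM-A, 4 rose and 3 fell in CITED against MDSC, 5 rose and 2 fell in MDSC-NP-Blk, and the list medians were 0.16 and 0.15. With library totals 2 rose and 5 fell in CITED, and 1 rose and 3 fell in MDSC-NP-Blk. Itga4, the alpha subunit of the VCAM-1 receptor, fell along with its counter-receptor, from 1564 ± 143 normalized counts without NPs to 715 ± 98.6 with blank NPs and 359 ± 28.7 in CITED. Its log2 fold change was −2.13 in CITED (SE 0.0917, adjusted p = 7.9e-20) and −1.13 in MDSC-NP-Blk (SE 0.0861, adjusted p = 6.1e-13), and CITED was also lower than MDSC-NP-Blk (adjusted p = 1.9e-10). Itgam and Itgb2, the subunits of the ICAM-1 receptor Mac-1, rose in CITED by 0.43 and 0.34, and the rise of Itgb2 did not pass with library totals (0.07, adjusted p = 0.14). Itgb3 fell by 0.54.

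ICAM-1 and VCAM-1 are classical NF-kB target genes in endothelium. All 12 listed NF-kB feedback targets rose in CITED against MDSC and all 12 in MDSC-NP-Blk, 4 and 2 of them by at least 2-fold, with list medians of 0.97 and 0.83. With library totals 10 and 11 of the 12 still passed, all of them higher. Nfkbia, which encodes the inhibitor IkB-alpha, stood at 6023 ± 292 normalized counts in MDSC, at 11608 ± 407 in MDSC-NP-Blk, and at 11765 ± 223 in CITED (log2 fold changes 0.95 and 0.97). Birc3, an antiapoptotic ubiquitin ligase, rose by 0.97 in CITED and 0.94 in MDSC-NP-Blk. Between CITED and MDSC-NP-Blk, 3 of the 12 were higher and 1 lower, with a median of 0.07. Icam1 moved in the direction of this list in both comparisons with MDSC, and Vcam1 in the other.

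Pecam1 (ENSMUSG00000020717.21), on the minus strand at chr11:106543689-106641454, encodes CD31. It stood at 1774, 1476, 1699, and 1624 normalized counts in MDSC, at 1636, 1595, 1465, and 1668 in MDSC-NP-Blk, and at 1039.6, 1009, 977, and 1056 in CITED. The CITED libraries were the 4 lowest, and MDSC and MDSC-NP-Blk overlapped. The means were 1643 ± 127, 1591 ± 89.3, and 1020.4 ± 35.1 (SD, n = 4). The log2 fold change of CITED was −0.69 against MDSC (SE 0.0668, adjusted p = 9.3e-11) and −0.64 against MDSC-NP-Blk (SE 0.0671, adjusted p = 2.7e-09), short of the fold threshold. MDSC-NP-Blk and MDSC differed by −0.05 (95% interval −0.18 to 0.08, adjusted p = 0.61), and with library totals by −0.31 (adjusted p = 0.00019).

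Pecam1 is a common endothelial marker, and the other 14 endothelial markers looked up ranged from absent to clearly detected. Of these, Cldn5, Sox17, and Sox18 had 0 counts in all 12 libraries, and Cdh5, VE-cadherin, averaged 3.87, 1.16, and 4.23 normalized counts in MDSC, MDSC-NP-Blk, and CITED. Erg and Vwf, which megakaryocytes also express, stood at 778, 807, and 484.5 and at 929, 881, and 756. Kdr, a receptor of VEGF, stood at 251, 223, and 281, and Egfl7 at 251, 284, and 135. Egfl7 and Flt1, another VEGF receptor, were 1.85-fold and 2.83-fold lower in CITED than in MDSC (adjusted p = 8.4e-07 and 0.0009). The sum over the 14 ran from 1905 to 2536 in MDSC, from 2010 to 2399 in MDSC-NP-Blk, and from 1540 to 1780 in CITED, where 4 fell and 0 rose against MDSC. Mast cell and basophil markers were also lower in CITED. Of 8 such genes, 6 fell and 0 rose in CITED against MDSC, and all 8 fell against MDSC-NP-Blk, whereas 6 rose and 0 fell in MDSC-NP-Blk against MDSC (2 and 1 with library totals), with sums between 10732 and 10962 in CITED, 18597 and 21342 in MDSC-NP-Blk, and 15360 and 16414 in MDSC. All 8 were detected, and their part in the level of Pecam1 was not tested.

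F11r (ENSMUSG00000038235.6), on the plus strand at chr1:171265092-171292958, encodes JAM-A, which is found on epithelium, endothelium, platelets, and leukocytes. It stood at 193, 171, 220.1, and 172 normalized counts in MDSC, at 319, 270.3, 205, and 215 in MDSC-NP-Blk, and at 257, 203, 274, and 245 in CITED. All 3 groups overlapped. The means were 189 ± 23.0, 252 ± 52.7, and 245 ± 30.4 (SD, n = 4). The log2 fold change against MDSC was 0.37 in CITED (SE 0.136, adjusted p = 0.024) and 0.41 in MDSC-NP-Blk (SE 0.135, adjusted p = 0.013), and −0.04 between them (95% interval −0.32 to 0.23, adjusted p = 0.90).

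Both F11r changes against MDSC depended on single libraries. Neither reached the fold threshold. The change in CITED missed the adjusted p threshold without MDSC replicate 2 or 4 or CITED replicate 1 or 3 (adjusted p = 0.068, 0.069, 0.060, and 0.091). The change in MDSC-NP-Blk missed it without MDSC-NP-Blk replicate 1 (adjusted p = 0.10). With library totals both missed the threshold (0.10 and 0.15, adjusted p = 0.59 and 0.39). Of the stretches of 31 bases in F11r, 5.56% also occur in transcripts of another gene, against at most 0.211% in the other members, so some of its reads could have been split.

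Of 15 other immunoglobulin and junctional adhesion genes, 14 were tested and Cd99 was not analysed here. In CITED against MDSC 2 rose and 4 fell, and in MDSC-NP-Blk 3 rose and 1 fell. Ncam1, a homophilic adhesion molecule best known from neurons, followed the order of Pecam1, with 132 ± 18.6 normalized counts in CITED, 268 ± 41.4 in MDSC-NP-Blk, and 284 ± 39.1 in MDSC, and its log2 fold change in CITED against MDSC was −1.10 (SE 0.136, adjusted p = 2.2e-08). L1cam fell with either NP (−0.79 and −0.69), whereas Alcam and Cd47, the latter a signal against phagocytosis, rose in CITED by 0.51 and 0.38. The JAM genes Jam2 and Jam3, relatives of F11r, did not pass the test in any comparison, with adjusted p from 0.22 to 0.98, although Jam2 passed in CITED with library totals (−0.51, adjusted p = 0.019), and Jam3 averaged at most 6.33 normalized counts in a group. With library totals 2 genes of this list rose and 7 fell in CITED, and 1 rose and 5 fell in MDSC-NP-Blk.

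Cd44 (ENSMUSG00000005087.19), on the minus strand at chr2:102641486-102732010, encodes the hyaluronan receptor CD44. It stood at 11621, 12225, 11525, and 11535 normalized counts in MDSC, at 14667, 16121, 16849.6, and 15188 in MDSC-NP-Blk, and at 14856, 14699, 14827, and 14269.8 in CITED. The MDSC libraries were the 4 lowest, and the groups with NPs overlapped. The means were 11727 ± 335, 15706 ± 971, and 14663 ± 271 (SD, n = 4). The log2 fold change against MDSC was 0.32 in CITED (SE 0.0464, adjusted p = 3.8e-07) and 0.42 in MDSC-NP-Blk (SE 0.0464, adjusted p = 2.8e-09). With library totals the first was 0.05 (adjusted p = 0.40), and after a correction for transcript length they were 0.51 and 0.55. CITED and MDSC-NP-Blk differed by −0.10 (95% interval −0.19 to −0.01, adjusted p = 0.13), which passed without MDSC-NP-Blk replicate 1 (adjusted p = 0.038).

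Of 12 other genes of hyaluronan synthesis, binding, and turnover, 2 rose and 5 fell in CITED against MDSC, and 2 rose and 3 fell in MDSC-NP-Blk. With library totals 1 rose and 6 fell in CITED, and 0 rose and 4 fell in MDSC-NP-Blk. Hmmr, which encodes RHAMM, a hyaluronan-binding protein of the mitotic spindle, fell from 1814 ± 108 normalized counts in the unmodified cells to 957 ± 165 with blank NPs and 419 ± 61.1 in CITED. Its log2 fold change in CITED was −2.11 (SE 0.0985, adjusted p = 6.5e-19). Cemip2, a hyaluronidase of the cell surface, fell by 0.98 in CITED and 0.65 in MDSC-NP-Blk, and Hyal2, a hyaluronidase, rose by 0.73 in CITED. Has1, a hyaluronan synthase, passed the test in CITED on few reads, with counts of 2, 1, 3, and 2 in MDSC, 3, 4, 4, and 4 in MDSC-NP-Blk, and 13, 6, 2, and 11 in CITED, so no fold change is given.

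The tails of CD44, ICAM-1, and PSGL-1 reach the actin cytoskeleton through ERM proteins. Of 7 linker genes, 3 rose and 3 fell in CITED against MDSC, and 1 rose and 4 fell in MDSC-NP-Blk, with list medians of −0.15 and −0.16. Vcl, which encodes vinculin, fell by 1.24 in CITED and 0.80 in MDSC-NP-Blk on the log2 scale, and Rdx, radixin, by 0.29 and 0.16. Ezr, ezrin, rose by 0.34 and 0.48, and Msn, moesin, by 0.27 in CITED. With library totals 0 of the 7 rose and 5 fell in CITED, where Ezr stood at 0.06 (adjusted p = 0.29), Msn at 0.00 (adjusted p = 1.0), and Fermt3, kindlin-3, passed the test in opposite directions under the 2 scalings.

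Selectins, ICAM-1, VCAM-1, and CD44 are cut from the cell surface by proteases. Of 6 such sheddases, 4 rose and 0 fell in CITED against MDSC, and 4 rose and 1 fell in MDSC-NP-Blk, with list medians of 0.46 and 0.23. With library totals 4 rose and 2 fell in CITED, and 2 rose and 2 fell in MDSC-NP-Blk. Mmp9, a gelatinase of neutrophil granules, was the only one called, rising from 22715 ± 1859.7 normalized counts without NPs to 33990.5 ± 1945 with blank NPs and 53234 ± 1624 in CITED (log2 fold change in CITED 1.23, SE 0.0502, adjusted p = 2e-20). Mmp14, a membrane-bound protease that cuts CD44, rose by 0.95 in CITED and 0.74 in MDSC-NP-Blk. Adam17, a sheddase of many surface proteins, rose by 0.30 in MDSC-NP-Blk (adjusted p = 4.4e-06) but not with library totals (0.03, adjusted p = 0.62), and in CITED it stood at 0.11 (adjusted p = 0.061) or, with library totals, −0.16 (adjusted p = 0.0054).

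**Figure D3:**
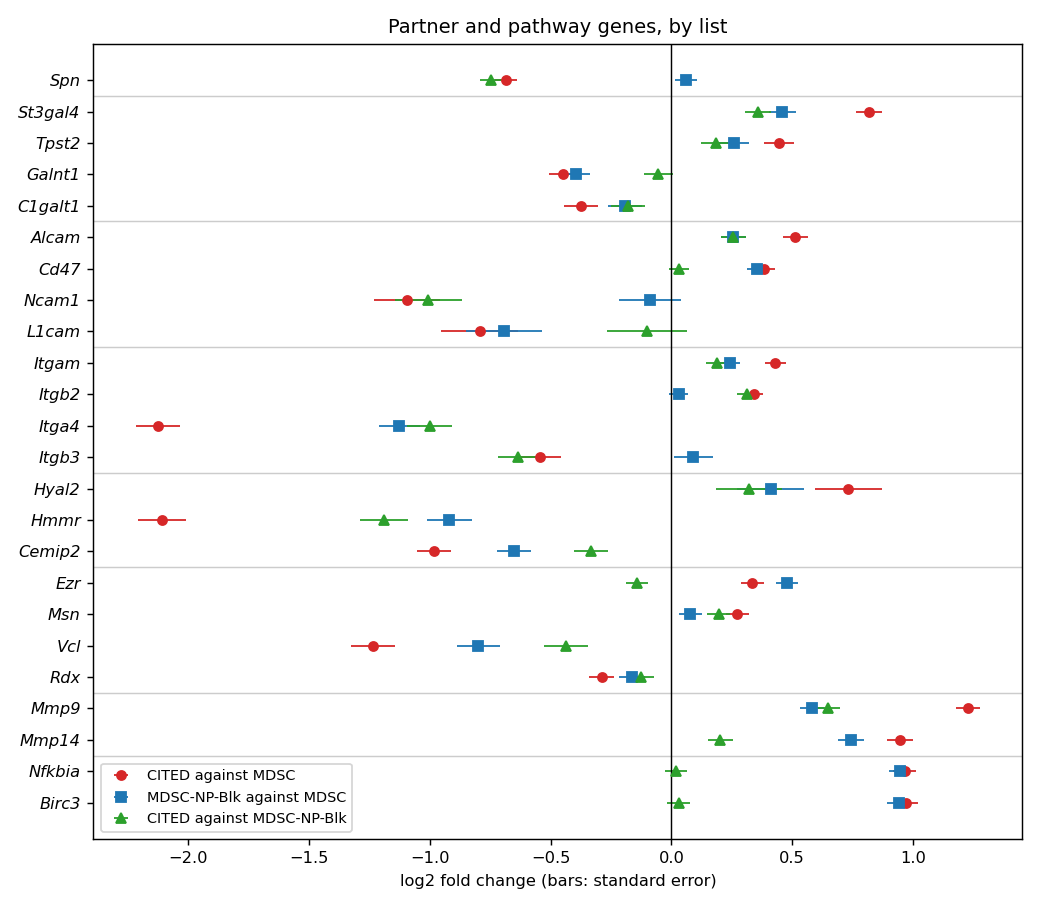
Log2 fold changes of the partner genes named from the pathway lists in the 3 comparisons, with bars for the SE and grey lines between lists. Mmp9 has the highest value in CITED (1.23), and Itga4 and Hmmr the lowest (−2.13 and −2.11).

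Levels were compared between genes per kilobase of canonical transcript. In MDSC the order of mean normalized counts per kilobase was Selplg (5849.7 ± 145), Cd44 (2074 ± 59.3), Icam1 (585 ± 24.4), Pecam1 (447 ± 34.6), Vcam1 (188 ± 22.9), Selp (67.0 ± 6.90), F11r (57.0 ± 6.93), and Mcam (33.4 ± 4.11). Of these neighbours, Selp and F11r overlapped between libraries. In CITED the first 4 places were the same, at 13182 ± 534, 2593 ± 47.9, 840.0 ± 26.0, and 277 ± 9.53 per kilobase. Selp (160.4 ± 24.9), Mcam (92.9 ± 13.7), and F11r (73.8 ± 9.15) then came before Vcam1, which stood last at 44.3 ± 6.23, and Mcam and F11r overlapped. In MDSC-NP-Blk Vcam1 (145 ± 17.0) kept its place and overlapped with Selp (129 ± 17.7), and Mcam (80.7 ± 14.7) overlapped with F11r (76.1 ± 15.9). The lengths are those of 1 transcript a gene. Cd44, for example, has 12 transcripts of 1305 to 5654 bases, and the canonical one has 5654.

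**Figure D4:**
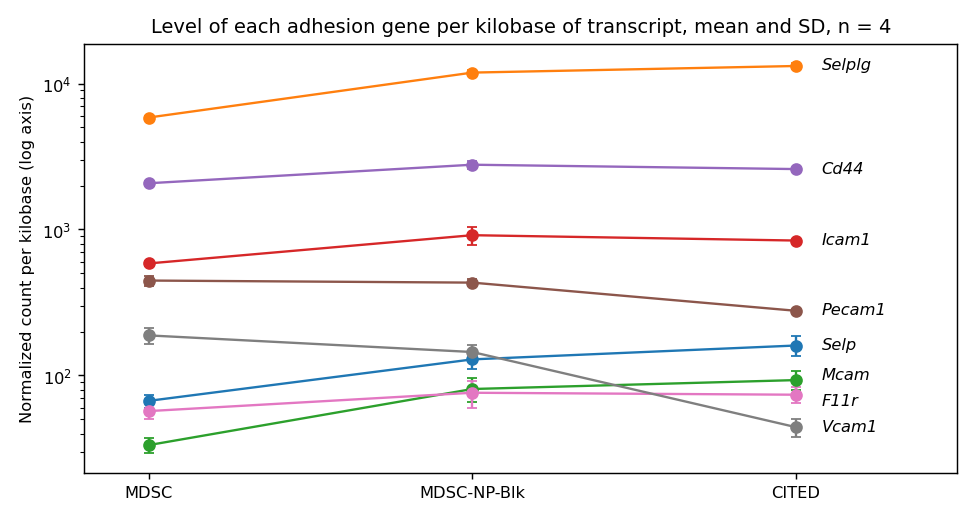
Mean normalized counts per kilobase of canonical transcript for the 8 genes in the 3 groups, on a log axis, with bars for the SD of 4 libraries. Selplg is the highest in every group, and Vcam1 moves from the fifth place in MDSC, at 188, to the last in CITED, at 44.3.

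The genes whose pattern over the 12 libraries was most like that of a member were found among 10556 genes with a mean above 50 normalized counts, by the root mean square difference of log2 levels centred on the mean of each gene. Selplg had the closest neighbours, with Adipor1, an adiponectin receptor, at 0.0359, Upp1 at 0.0462, and Fcgr3, an Fc receptor, at 0.0493. Those of Selp were Dusp5, Dusp6, and Gpr55 (0.150 to 0.155), the Dusp genes encoding phosphatases of ERK kinases. Mcam was nearest to Hilpda, Rabac1, and Ypel3 (0.134 to 0.148), Icam1 to N4bp1, Mapkapk2, and Bcl2l11 (0.0657 to 0.0686), and Cd44 to Oga, Rnf11, and Niban1 (0.0429 to 0.0512). Pecam1 was nearest to Cyp11a1, Septin5, and Ube2c (0.0720 to 0.0793), and F11r to Mrrf, Mxd4, and Acd (0.122 to 0.140). Vcam1 had the most distant neighbours, Nuf2, a kinetochore gene, Prtn3, a neutrophil granule protease, and Epx, eosinophil peroxidase, at 0.184, 0.190, and 0.197. These distances were not scaled to the size of a gene's own changes. The root mean square of its own centred levels was largest for Vcam1, at 0.917, against 0.265 for F11r.

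Of the other cell types looked up, stromal and pericyte markers had sums between 759 and 968 normalized counts in CITED, 1033 and 1068 in MDSC-NP-Blk, and 638 and 768 in MDSC, with Col3a1, Pdgfra, Cspg4, and Des at or under 3 counts in every library. Lymphocyte markers summed to 60.9 to 78.8, 87.6 to 150.3, and 119 to 179. Against MDSC, 1 of 10 stromal markers rose and 1 fell in CITED and 2 rose in MDSC-NP-Blk, and 3 of 7 lymphocyte markers fell in CITED and 1 in MDSC-NP-Blk. On the strand opposite to 7 of the 8 genes, all but Pecam1, GENCODE lists 8 long noncoding RNAs that overlap their exons by 61 to 919 bases. These were not analysed here, and since whether the counting used the strand is not stated, reads of such RNAs cannot be told apart from those of the genes.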

How the data were processed

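The authors enriched poly(A) RNA, sequenced it paired-end, ran Salmon 1.4.0 on GENCODE's GRCm39 transcriptome, and deposited unnormalized whole-number counts per gene symbol. An entry with an empty symbol (0 counts) was left out. Groups and replicate numbers came from the sample titles. The filter kept symbols whose counts summed to 2 or more (17676), and these were fitted with edgeR 4.0.16 in R 4.3.3 (TMM factors, glmQLFit, glmQLFTest, group as the only term, all 12 libraries in 1 fit), with Benjamini-Hochberg adjustment over all of them. The fold thresholds are those of the study. The biological coefficient of variation was 9.03%. Normalized counts are counts divided by library size and factor, scaled to the mean library. An SE is the size of the log2 fold change over the square root of F. A floor of 3 counts was used, 7.92e-06% to 1.46e-05% of a library, and it covers only the error of counting. Lengths, coordinates, and upstream sequences came from GENCODE release M39 on GRCm39. The release the authors used is not given in the sources used here.

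The 8 genes and all lists were chosen with earlier results of these data known, and the list of brain markers after seeing these values. The 8 genes are named in every comparison. From each of the 8 pathway lists, the 2 genes with the lowest p in each direction in CITED against MDSC are named where the adjusted p is below 0.05, with the 3 nearest patterns of each member. Some items that meet the rule are not reported here. Sele, Fut7, St3gal6, Jam2, Jam3, Fermt3, and Adam17 were added after their values were seen. Alternatives were DESeq2 1.42.0, other scalings and filters, robust estimation, fits of only the 8 libraries compared, the replicate number as a block, a correction for transcript length (loess, span 0.5), glmTreat, no fold threshold, and leaving out each library. The steps were tested on simulated data. Figures were drawn with Python 3.11.15 and matplotlib 3.10.9.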

Additional observations from a re-analysis of the deposited data

Results flagged for a closer look

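In the MDSC group, Cd44 in replicate 2 stood apart from the other 3 libraries, at 12225 normalized counts against 11525 to 11621. Its gap to the nearest library was 0.863 of the range of the group, above the 95% critical value of Dixon's test for 4 values (0.829). Of 24 groups tested (8 genes in 3 groups), this was the only one above that value, and chance gives about 5%.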

How the results depend on the processing

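The directions of all called genes held in every alternative run. The count of called genes in CITED against MDSC was 4, and it was 2 with library totals only and 8 with no fold threshold. In MDSC-NP-Blk against MDSC it was 2, and it was 0 with library totals only, 1 with the length correction, 7 with no fold threshold, and 0 with glmTreat, which tests against the threshold. In CITED against MDSC-NP-Blk it was 1, and it was 4 with no fold threshold. Leaving out each library in turn gave 4 to 4, 1 to 3 (1 without MDSC-NP-Blk replicate 4), and 1 to 1 calls. With library totals, which have no correction for composition, the median over all symbols moved with the counts; for the others the cause was not tested. Same-numbered libraries did not deviate together (correlations −0.06 to 0.14, for other pairs −0.16 to 0.16). Libraries of a shared preparation need not deviate together, so these values do not settle whether the numbers pair the samples. With the replicate block the counts were 4, 2, and 1. Apart from fits without 1 library, 78, 78, and 80 of 80 single-gene values in the 3 comparisons kept sign and side of the threshold. When a library was left out, 92, 95, and 88 of 96 did. In CITED against MDSC-NP-Blk, 2 of the 96 changed sign without passing the threshold in either fit. Depth limits Mcam, Vcam1, F11r, and Selp most, with lowest library counts of 97, 102, 166, and 234.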
